A study of Mus musculus with 18 samples.

Results

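The suppressors of cytokine signalling (SOCS) are a family of 8 genes, Socs1 to Socs7 and Cish, and their transcripts were followed here in bone marrow-derived macrophages (BMDMs) of a mouse model of Sjögren's syndrome and of its control strain. The members were the rows of the deposited count table that carry these 8 gene names. All 8 were found among the 20615 genes of the table, each in 1 row, and all 8 passed the filter on low counts that left 15789 genes for testing. The table places Socs1 at chr16:10783808-10785536 on the minus strand, Socs3 at chr11:117966079-117970047 on the minus strand, Socs7 at chr11:97362551-97398542 on the plus strand and Cish at chr9:107296026-107302784 on the plus strand of mouse build mm10. Socs2, Socs4, Socs5 and Socs6 lie on chromosomes 10, 14, 17 and 18.

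The 18 samples formed 6 groups of 3. BMDMs came from C57BL/6 (B6) mice or from C57BL/6.NOD-Aec1Aec2 mice, called SjS-susceptible (SjSS), which carry the Aec1 and Aec2 intervals of the diabetic NOD strain on the B6 background. All mice were female and 7 to 12 weeks old, and BMDMs of all groups were grown to day 7 with 20% L929 supernatant, a source of M-CSF, and kept in 5% of it during treatment. Control BMDMs received nothing further. AC treated BMDMs received apoptotic cells (AC), thymocytes killed with dexamethasone, at 5 per BMDM for 2 h and were harvested 3 h after washing by the labels, whereas the methods of the study give 4 h. CpG treated BMDMs received 1 µM CpG-oligodeoxynucleotides, a ligand of the endosomal receptor TLR9, for 6 h. A figure legend of the study describes washing and 3 h more without setting CpG apart. Time to harvest may therefore differ between AC and CpG samples. The same legend gives 3 mice per strain. The study does not say whether samples with the same number share a mouse, nor which strain the thymocytes of each sample came from. The strains differ by whole chromosomal intervals, so no single allele was tested. Sequencing dates and batches are not in the labels.

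SOCS proteins are classical negative feedback regulators of the JAK-STAT pathway. A cytokine receptor activates Janus kinases (JAKs), which phosphorylate STAT transcription factors, and the STATs then turn on genes that include some of the SOCS genes themselves. Each SOCS protein has an SH2 domain, which binds phosphotyrosine on a receptor or kinase, and a SOCS box, which recruits elongins and a cullin to mark the bound protein for degradation. SOCS1 and SOCS3 in addition carry a kinase inhibitory region that blocks JAKs, and in macrophages they restrain the responses to interferons and to IL-6.

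Sequences before the start (Socs1 and Socs3) or from the start on (Cish) of the 3 genes best known as STAT targets are shown first. They were picked because all 3 were called higher after AC in SjSS BMDMs. A reader can see there the letters that STAT and IRF factors are known to bind. RefSeq promoters on build GRCm38.p6 were at hand for Socs1, Socs3, Socs4 and Cish, 4 of the 8 members. Both strands were searched for the gamma-activated sequence TTCNNNGAA, bound by STAT dimers, and for the core of the interferon-stimulated response element, which IRF and STAT complexes bind and which reads GAAA, any 2 bases, GAAA. In the 250 bases before the start, 7.02% of 32851 mouse promoters held the first and 2.98% held the second. The sequences run 5′ to 3′ on the strand of the gene, with matches in capitals.
Socs1, chr16:10785537-10785786, minus strand, 250 bases up to the start: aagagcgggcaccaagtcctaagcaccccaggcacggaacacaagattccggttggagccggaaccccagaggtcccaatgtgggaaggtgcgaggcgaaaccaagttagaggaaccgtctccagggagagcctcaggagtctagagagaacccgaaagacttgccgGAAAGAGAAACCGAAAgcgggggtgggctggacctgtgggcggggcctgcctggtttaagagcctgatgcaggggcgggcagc
Socs3, chr11:117969452-117969616, minus strand, 165 bases from -250 to -86: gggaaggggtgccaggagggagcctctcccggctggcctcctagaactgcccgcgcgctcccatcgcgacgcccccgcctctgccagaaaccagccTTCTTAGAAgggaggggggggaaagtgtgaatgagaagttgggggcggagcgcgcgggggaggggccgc
Cish, chr9:107296659-107296678, plus strand, 20 bases from the start: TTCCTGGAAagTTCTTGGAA
In Socs1 the capitals are 2 copies of the interferon element core, GAAAGAGAAA from -83 and GAAACCGAAA from -77, which share their middle bases. In Socs3 a single gamma-activated match lies at -154, in an intron of a longer annotated transcript of the gene. In Cish 2 gamma-activated matches begin at 1 and at 12 counted from the RefSeq start, which lies 633 bases after the start given in the count table, within the first exon of another annotated transcript. With the 50 bases after the start included, 8.30% of promoters held a gamma-activated match. The 250 bases before the Cish start held neither motif, and neither did the Socs4 promoter. A match describes letters only, binding was not measured, and a part of these motifs in the responses was not tested.

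In control BMDMs of both strains the family was led by Socs6. Levels of different genes are compared as FPKM, here CPM (counts scaled to library size) per kilobase of annotated exons. Socs6 stood at 8.14 ± 0.776 FPKM in control B6 and 10.2 ± 0.106 FPKM in control SjSS BMDMs (SD, n = 3 for each group throughout), followed by Socs4, Socs7, Socs5, Socs3 and Socs1. Cish and Socs2 were lowest, below 0.7 FPKM in every control sample, and their levels overlapped in both strains. These positions depend on the length used, since with the longest or the principal transcript Socs2 stood above Socs1, at 1.23 ± 0.277 or 2.34 ± 0.528 FPKM in control B6 BMDMs, with overlapping samples, and Cish was lowest. Socs6 led the controls with each of the 3 lengths. The summed FPKM of the 8 genes was 31.0 ± 1.38 in control B6 and 29.3 ± 1.04 in control SjSS BMDMs.

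Treatment changed which member led. With CpG, Socs3 was highest in both strains and made up 88.9% ± 0.97 of the summed family FPKM in B6 and 80.5% ± 1.70 in SjSS BMDMs. With AC, Socs3 also led in B6 BMDMs at 12.4 ± 2.10 FPKM, but in SjSS BMDMs Socs1 led at 108 ± 6.56 FPKM, ahead of Socs3 at 61.3 ± 4.46 FPKM and Socs7 at 19.7 ± 0.615 FPKM. No neighbours in the order Socs1, Socs3, Socs7, Socs6, Socs4, Socs5, Cish and Socs2 overlapped in AC treated SjSS BMDMs. The summed FPKM after CpG was 252 ± 22.8 in B6, the highest of all groups, and 134 ± 14.6 in SjSS BMDMs. With AC the sum was 38.5 ± 2.06 in AC treated B6 and 206 ± 9.63 in AC treated SjSS BMDMs. Socs1 accounted for 10.8% ± 2.21 of the sum in the former and 52.4% ± 0.769 in the latter. The span of Socs1 in the deposited table is shorter than its annotated exons, and with the principal transcript inside that span its share was 17.1% ± 3.16 in AC treated B6 and 66.6% ± 0.694 in AC treated SjSS BMDMs. With that length Socs1 came to 234 ± 14.2 FPKM and the family sum to 351 ± 17.9 FPKM in the latter, above the mean sum of 296 FPKM in CpG treated B6 BMDMs. Which group had the highest sum thus depended on the length used. The order in AC treated SjSS BMDMs was the same with each of 3 gene lengths. In these bulk samples, fewer cells with a transcript and less of it per cell cannot be told apart.

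**Figure D1:**
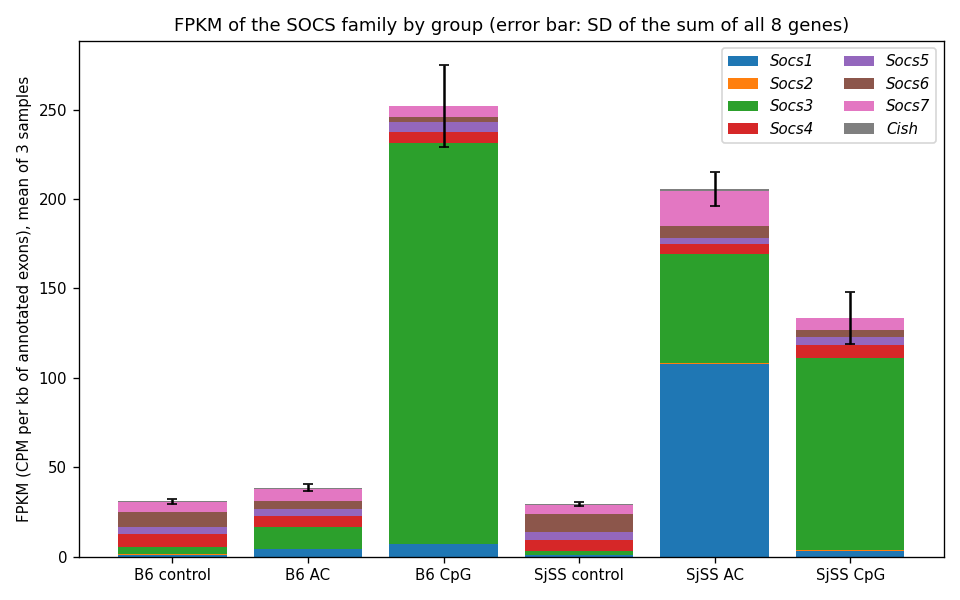
Stacked FPKM of the 8 SOCS genes in the 6 groups, each colour 1 gene as the mean of 3 samples, with the SD of the sum as the error bar. The bars of both controls and of AC treated B6 BMDMs stay between 29.3 and 38.5 FPKM, while CpG raises the green Socs3 block and AC in SjSS BMDMs adds a Socs1 block of 108 FPKM.

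The tests below were made per gene with edgeR's quasi-likelihood test, adjusted over all 15789 genes by the Benjamini-Hochberg method. A gene is called higher or lower at an adjusted p under 0.05 with a log2 fold change over 1.3 in size, and is said to rise or fall at an adjusted p under 0.05 alone. Counts of members at an unadjusted p under 0.05 are also given. The share of all genes at that looser threshold was not counted, so the shares printed do not apply to them. Errors of log2 fold changes are standard errors (SE).

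AC raised more members of the family, and also a larger share of all genes, in SjSS than in B6 BMDMs. In B6 BMDMs, 2 of 8 members were called higher after AC, Socs1 and Socs3, where 2.43% of all tested genes were called higher. None was called lower by edgeR or by DESeq2, where 2.04% of genes were. In SjSS BMDMs, 4 of 8 were called higher, Socs1, Socs3, Socs7 and Cish, against 7.09% of all genes, and none was called lower by either tool, against 5.83%. At an adjusted p under 0.05 alone, 3 members rose and 2, Socs2 and Socs6, fell in B6 BMDMs, where 20.0% of genes rose and 18.3% fell. In SjSS BMDMs 4 rose and 2, Socs5 and Socs6, fell, where 28.6% rose and 29.4% fell, so the share of falling members was near that of all genes in both strains. At an unadjusted p under 0.05 the number lower was 2 in each strain. The median log2 fold change of the 8 members was -0.13 in B6 and 0.98 in SjSS BMDMs, beside 0.0015 and -0.017 over all tested genes.

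CpG gave a more even response in the strains. In B6 BMDMs Socs1 and Socs3 were called higher, 2 of 8 members against 5.86% of all genes, and Socs2, Socs6 and Cish were called lower, 3 of 8 against 6.88%. In SjSS BMDMs the same Socs1 and Socs3 were called higher, 2 of 8 against 4.81%, and Socs2 and Socs6 lower, 2 of 8 against 4.45%. At an adjusted p under 0.05 alone, 3 rose and 3 fell in B6 BMDMs, against 28.1% and 29.8% of genes, and 3 rose and 2 fell in SjSS BMDMs, against 27.8% and 26.4%. The AC and CpG responses of a strain share their control samples. The medians over the members after CpG were -0.013 in B6 and 0.16 in SjSS BMDMs, and those over all genes were -0.041 and -0.014.

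**Figure D2:**
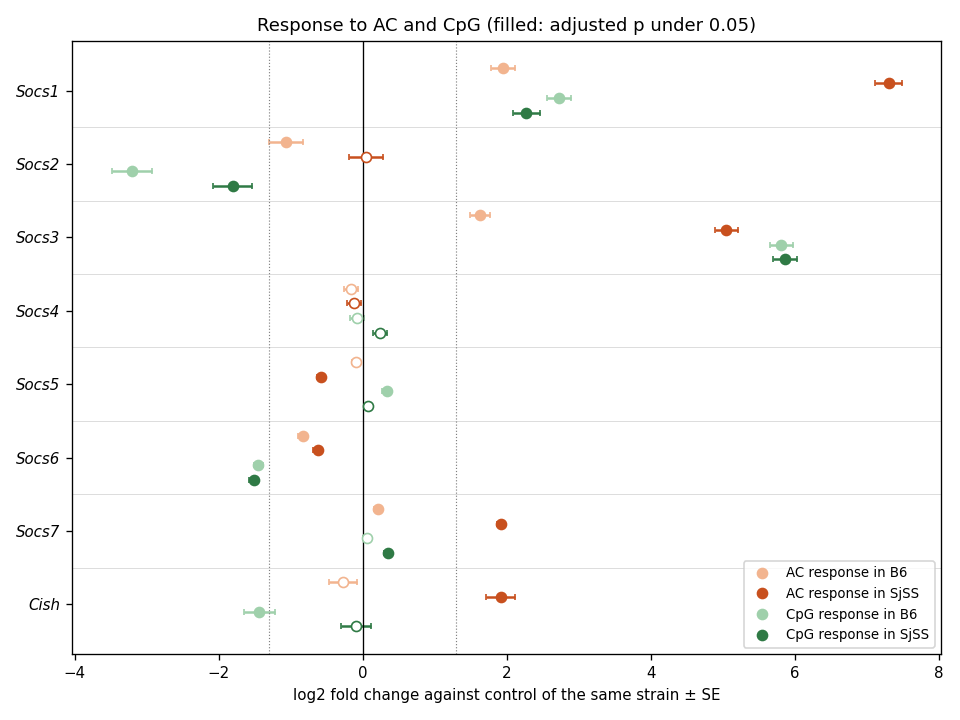
Log2 fold changes of the 8 SOCS genes against control BMDMs of the same strain (points) with SE (bars), in orange for AC and green for CpG, pale for B6 and dark for SjSS. Filled points have an adjusted p under 0.05 and dotted lines mark 1.3 in either direction. The dark orange points of Socs1, Socs3, Socs7 and Cish lie past the right line, at 7.31, 5.05, 1.92 and 1.92.

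Socs1, whose product binds JAKs and limits interferon signalling, had the widest range of the family. Its 3 samples gave 2.79, 3.00 and 3.50 CPM in control B6 and 2.27, 2.37 and 1.41 CPM in control SjSS BMDMs. After AC they gave 13.8, 10.03 and 12.2 CPM in B6 and 295, 333 and 312 CPM in SjSS BMDMs. After CpG they gave 22.8, 20.2 and 18.3 CPM in B6 and 8.61, 7.96 and 12.0 CPM in SjSS BMDMs. Every AC treated SjSS sample was thus over 10 times above every other sample, and no 2 of the 6 groups overlapped except AC treated B6 with CpG treated SjSS BMDMs. The AC response was 1.95 ± 0.17 on the log2 scale in B6 (adjusted p = 2.9e-08) and 7.31 ± 0.18 in SjSS BMDMs (adjusted p = 2.6e-16), the latter a 158-fold rise that ranked 31 among all tested genes. The CpG response was 2.72 ± 0.16 in B6 and 2.27 ± 0.19 in SjSS BMDMs, with adjusted p = 4.0e-11 and 5.1e-09. In B6 BMDMs the mean level after CpG was 1.70 times that after AC, and in SjSS BMDMs the mean after AC was 32.9 times that after CpG. These values were not tested, and time to harvest may differ between the treatments.

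Socs3, which binds the gp130 chain of IL-6 receptors together with JAKs, rose in every treated group, most with CpG. Control samples gave 11.5, 11.4 and 11.7 CPM in B6 and 4.55, 7.19 and 4.66 CPM in SjSS BMDMs. AC treated samples gave 29.5, 41.7 and 36.0 CPM in B6 and 167, 192 and 173 CPM in SjSS BMDMs. CpG treated samples gave 685, 686 and 573 CPM in B6 and 284, 292 and 358 CPM in SjSS BMDMs. None of the 6 groups overlapped another. Its AC response was 1.63 ± 0.14 in B6 and 5.05 ± 0.16 in SjSS BMDMs, with adjusted p = 3.1e-08 and 4.0e-15. The CpG response was 5.82 ± 0.16 in B6 and 5.87 ± 0.16 in SjSS BMDMs, with adjusted p = 9.4e-16 and 1.6e-15. Both strains therefore gained about the same with CpG on the log2 scale from different starting levels, and CpG treated B6 BMDMs stood above CpG treated SjSS BMDMs in every sample.

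**Figure D3:**
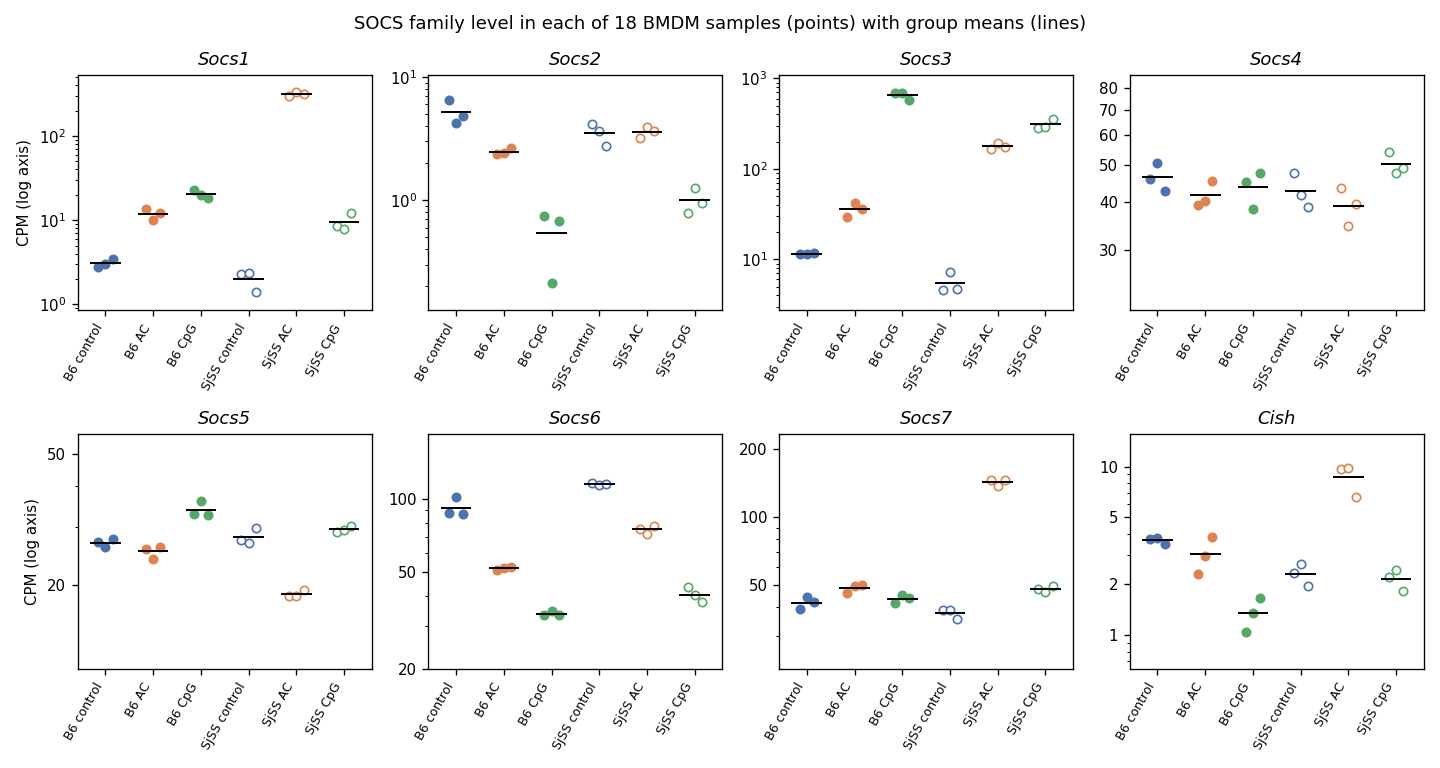
CPM of each SOCS gene in the 18 samples on log axes, with filled points for B6, open points for SjSS and a line at each group mean. Socs1, Socs7 and Cish have the AC treated SjSS group on top, at means of 313, 143 and 8.69 CPM, while Socs3 is highest in CpG treated B6 BMDMs at 648 CPM and Socs6 in the controls.

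Cish, which encodes CIS, a STAT5 target that binds receptors of the IL-2, IL-3 and growth hormone kind, rose only after AC in SjSS BMDMs among the 4 responses tested. Control samples gave 3.72, 3.78 and 3.48 CPM in B6 and 2.34, 2.66 and 1.96 CPM in SjSS BMDMs. AC treated samples gave 2.30, 2.97 and 3.81 CPM in B6 and 9.64, 9.82 and 6.62 CPM in SjSS BMDMs, all 3 of the latter above every other sample of the series. CpG treated samples gave 1.05, 1.36 and 1.65 CPM in B6, below all B6 controls, and 2.20, 2.45 and 1.83 CPM in SjSS BMDMs, overlapping their controls. Cish changed after AC by -0.28 ± 0.19 in B6 (adjusted p = 0.29) and 1.92 ± 0.20 in SjSS BMDMs (adjusted p = 9.5e-08). The CpG response was -1.44 ± 0.21 in B6 (adjusted p = 9.4e-06) and -0.094 ± 0.21 in SjSS BMDMs (adjusted p = 0.74). The call in B6 BMDMs after CpG rested on the first CpG sample, since without it the value was -1.27 with an adjusted p still under 0.05. Annotated antisense and pseudogene transcripts, Gm17041 and Gm17040, overlap Cish on the other strand, and the sources do not say whether the counting used strand.

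Socs2, another STAT5 target, which limits growth hormone signalling, was among the scarcest members and fell with CpG in both strains. Control samples gave 6.52, 4.28 and 4.80 CPM in B6 and 4.16, 3.64 and 2.74 CPM in SjSS BMDMs. CpG treated samples gave 0.746, 0.213 and 0.674 CPM in B6 and 0.787, 1.26 and 0.959 CPM in SjSS BMDMs, all below their controls. The CpG response was -3.21 ± 0.28 in B6 and -1.81 ± 0.27 in SjSS BMDMs, with adjusted p = 9.7e-09 and 1.1e-05. AC treated samples gave 2.36, 2.42 and 2.65 CPM in B6, below all B6 controls, and 3.18, 3.95 and 3.66 CPM in SjSS BMDMs, within the range of their controls. The AC response was -1.07 ± 0.24 in B6 (adjusted p = 0.0013) and 0.038 ± 0.24 in SjSS BMDMs (adjusted p = 0.90).

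Socs7, which binds the adaptor NCK and insulin receptor substrates, was highest in AC treated SjSS BMDMs and varied little elsewhere. Samples ranged from 35.6 to 44.6 CPM in the controls of both strains, from 46.2 to 50.3 CPM in AC treated B6 BMDMs, and from 41.7 to 49.7 CPM after CpG. In AC treated SjSS BMDMs they gave 146, 138 and 145 CPM, all far above every other sample of the series. The log2 fold change after AC was 0.22 ± 0.058 in B6 (adjusted p = 0.0064) and 1.92 ± 0.060 in SjSS BMDMs (adjusted p = 3.0e-15). Its CpG response was 0.058 ± 0.059 in B6 (adjusted p = 0.42) and 0.35 ± 0.059 in SjSS BMDMs (adjusted p = 4.7e-05).

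Socs6, which binds KIT and insulin receptor signalling proteins, fell in all 4 responses. Control samples gave 87.4, 103 and 87.1 CPM in B6 and 117, 114 and 116 CPM in SjSS BMDMs. AC treated samples gave 50.9, 51.9 and 52.6 CPM in B6 and 75.7, 71.9 and 77.8 CPM in SjSS BMDMs. CpG treated samples gave 33.4, 34.7 and 33.2 CPM in B6 and 43.3, 40.2 and 37.8 CPM in SjSS BMDMs, so in each strain all AC samples lay below all controls and all CpG samples below all AC samples. The AC response was -0.83 ± 0.063 in B6 and -0.62 ± 0.062 in SjSS BMDMs, with adjusted p = 5.6e-09 and 5.7e-08. The CpG response was -1.45 ± 0.064 in B6 and -1.52 ± 0.064 in SjSS BMDMs, with adjusted p = 5.4e-13 and 4.3e-13. Annotated pseudogenes overlap the Socs6 span but have no row of their own in the table.

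Socs5, which acts on the EGF receptor and on IL-4 signalling, moved little. Control samples lay between 26.1 and 29.7 CPM in both strains. After AC, SjSS samples gave 18.4, 18.5 and 19.3 CPM, the lowest of the series, and B6 samples gave 24.0 to 26.1 CPM. The AC response was -0.58 ± 0.060 in SjSS BMDMs (adjusted p = 9.3e-08) and -0.091 ± 0.059 in B6 BMDMs (adjusted p = 0.24). After CpG, Socs5 rose by 0.33 ± 0.058 in B6 BMDMs (adjusted p = 7.0e-05), and the SjSS value was 0.075 ± 0.059 (adjusted p = 0.30). Socs4, its closest relative and likewise a regulator of the EGF receptor, ranged from 34.6 to 54.0 CPM over all 18 samples. No response of Socs4 passed an adjusted p of 0.05, the largest being 0.24 ± 0.099 with CpG in SjSS BMDMs (adjusted p = 0.052).

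Compared directly between strains, the family differed most after AC. No member was called different in control BMDMs by edgeR or DESeq2, where 1.3% of all genes were called higher and 0.716% lower in SjSS. At an adjusted p under 0.05 alone, Socs3 (-1.11 ± 0.16), Cish (-0.67 ± 0.20) and Socs1 (-0.65 ± 0.21) were lower and Socs6 (0.33 ± 0.062) was higher in control SjSS than in control B6 BMDMs, 3 lower against 10.6% of genes and 1 higher against 9.04%. At an unadjusted p under 0.05, where the share of all genes was not counted, 5 were lower and 1 was higher. The lower level of Socs1 lost its adjusted p without the second or the third B6 control or the third SjSS control, and that of Cish without the first or the second B6 control or the first or the third SjSS control, with values up to 0.21 and 0.12. Socs3 and Socs6 held without each library in turn.

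After AC, 4 of 8 members were called higher in SjSS than in B6 BMDMs, against 6.24% of all genes, and none was called lower by edgeR or DESeq2, against 2.69%. Socs1 differed by 4.71 ± 0.15, Socs3 by 2.31 ± 0.13, Socs7 by 1.55 ± 0.059 and Cish by 1.52 ± 0.19 on the log2 scale, with adjusted p = 2.2e-14, 5.2e-11, 1.5e-13 and 2.5e-06. At an adjusted p under 0.05 alone 5 were higher and 1 lower, against 24.0% and 25.5% of genes. The additional genes were Socs6, higher by 0.54 ± 0.063, and Socs5, at -0.43 ± 0.060, which was also the 1 member lower at an unadjusted p under 0.05. Socs1 and Socs3 were thus lower in SjSS BMDMs without treatment and higher after AC. The lower level without treatment held with each library left out for Socs3 but not for Socs1.

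After CpG, none was called in either direction by edgeR or DESeq2, where 1.82% of genes were called higher and 0.792% lower in SjSS BMDMs. Socs1 and Socs3 were lower in SjSS, by -1.10 ± 0.15 and -1.06 ± 0.13, with adjusted p = 3.0e-05 and 8.8e-06, and all 3 SjSS samples lay below all 3 B6 samples for both. Socs5 was also lower (-0.20 ± 0.059, adjusted p = 0.023), and Cish (0.68 ± 0.22, adjusted p = 0.039) and Socs6 (0.26 ± 0.064, adjusted p = 0.0073) were higher. These were 3 lower members against 9.57% of genes and 2 higher against 10.2%. At an unadjusted p under 0.05, where the share of all genes was not counted, the counts were 3 and 4. Socs5 lost its adjusted p without the second B6 or the first or the second SjSS CpG sample (up to 0.12), Cish without the first or the second CpG sample of either strain (up to 0.17), and Socs6 without the first SjSS CpG sample (0.052).

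**Figure D4:**
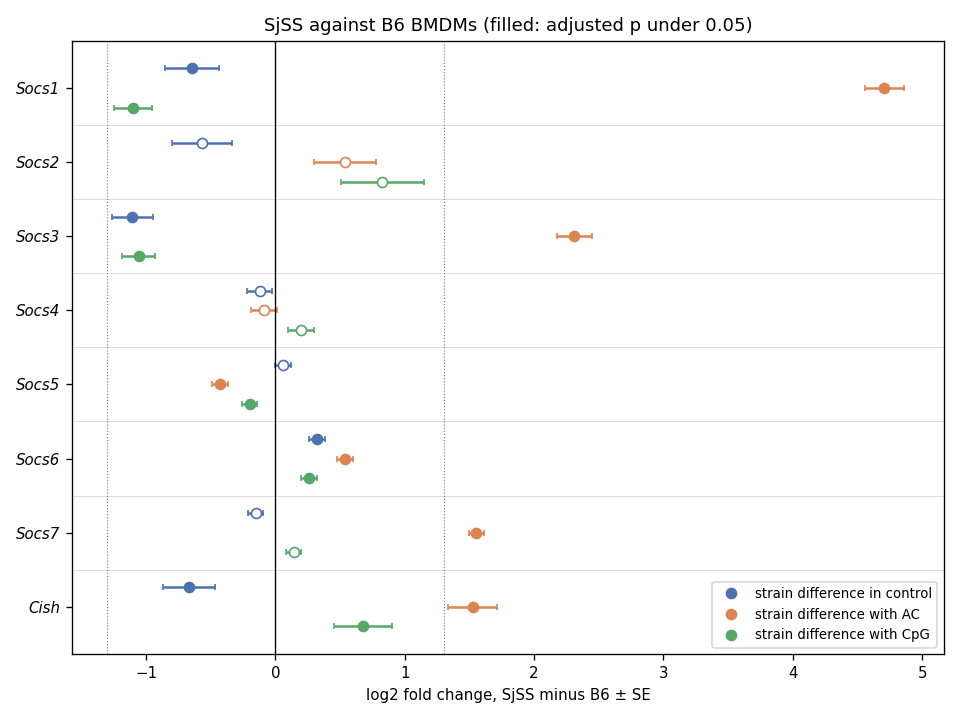
Log2 difference of SjSS against B6 BMDMs for each SOCS gene (points) with SE (bars) in control, AC treated and CpG treated samples. Filled points have an adjusted p under 0.05 and dotted lines mark 1.3. For Socs1 and Socs3 the control and CpG points lie left of 0, between -1.11 and -0.65, and the AC points far to the right, at 4.71 and 2.31.

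The difference between the strains' responses was tested as an interaction. Higher here means a more positive log2 fold change in SjSS than in B6 BMDMs, which includes a smaller fall or none. With AC, 4 of 8 members were called higher, against 4.76% of all genes, and none lower, against 2.77%. These were Socs1 (5.35 ± 0.25, adjusted p = 1.3e-11), Socs3 (3.42 ± 0.21, adjusted p = 3.2e-10), Cish (2.19 ± 0.28, adjusted p = 4.4e-06) and Socs7 (1.71 ± 0.083, adjusted p = 2.1e-11). Each stayed called with every library left out in turn. Socs2 (1.11 ± 0.33, adjusted p = 0.013) and Socs5 (-0.49 ± 0.084, adjusted p = 1.3e-04) passed the adjusted p alone, which gave 5 higher members against 19.6% of genes and 1 lower against 18.3%, and Socs6 (0.21 ± 0.088, adjusted p = 0.068) and Socs4 (0.033 ± 0.14, adjusted p = 0.89) did not. DESeq2 called no member lower either, and Socs5 was the 1 member lower at an unadjusted p under 0.05.

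With CpG, Socs2 (1.40 ± 0.39, adjusted p = 0.043) and Cish (1.34 ± 0.30, adjusted p = 0.012) were called, 2 of 8 members against 0.285% of all genes. Socs2 fell more in B6 than in SjSS BMDMs, and Cish fell in B6 BMDMs beside -0.094 ± 0.21 in SjSS BMDMs. None was called lower by either tool, against 0.329%, with 1 at an unadjusted p under 0.05. These calls were fragile. Socs2 lost its adjusted p without any 1 of 7 libraries, the first B6 control and, in each of SjSS controls, B6 CpG and SjSS CpG samples, the second and the third. Cish kept an adjusted p of at most 0.034 but came under 1.3 without the third SjSS control, the first B6 CpG or the second SjSS CpG sample. Socs7 (0.29 ± 0.083, adjusted p = 0.043) lost its adjusted p without 10 of the 12 libraries in turn, all but the first controls of both strains. At an adjusted p under 0.05 alone, 3 members were higher against 3.23% of genes and 0 lower against 2.62%. For Socs3, which moved most with CpG, the interaction was 0.051 ± 0.20 (adjusted p = 0.93), and for Socs1 it was -0.45 ± 0.26 (adjusted p = 0.34).

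The genes around the family in the pathway were read from lists by role. Of 15 tested cytokine ligands, 14 rose after AC in SjSS BMDMs, where 28.6% of all genes rose, and 12 were called higher, against 7.09%. In B6 BMDMs 10 rose, against 20.0% of genes, and 7 were called higher, against 2.43%. The median log2 fold change of the list was 3.91 in SjSS and 1.71 in B6 BMDMs, or 3.61 and 1.13 with ligands at 0 in all controls (Csf3, and in B6 also Il12a and Il23a) set to the bound that 3 counts per library give. Il27, an IL-12 family subunit, went from 0.563 ± 0.154 to 46.3 ± 1.73 CPM in SjSS and from 0.920 ± 0.163 to 2.00 ± 0.242 CPM in B6 BMDMs, an interaction of 5.19 ± 0.23. Il15, a STAT5-activating cytokine, went from 7.21 ± 1.31 to 107 ± 7.02 CPM in SjSS and was at 6.47 ± 0.658 and 6.04 ± 0.602 CPM in B6 BMDMs, an interaction of 4.01 ± 0.22. Il6, which signals through gp130, reached 69.3 ± 12.0 CPM after AC in SjSS and 5.27 ± 1.38 CPM in B6 BMDMs from 0.0674 ± 0.0748 and 0.103 ± 0.0633 CPM in the controls. Il12b reached 15.8 ± 1.96 and 0.868 ± 0.372 CPM, and Csf3, with no count in any control, reached 0.427 ± 0.215 and 0.234 ± 0.0601 CPM. Il27, Il6, Il15, Il12b and Il10 were called higher in the interaction, 5 of 15 against 4.76% of genes, and Il11 lower, and Il12b lost this without the first or the second B6 control, at an adjusted p of 0.10 and 0.12.

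Among 11 JAKs and STATs, 9 rose and 1, Stat6, fell after AC in SjSS BMDMs, against 28.6% and 29.4% of all genes, and in B6 BMDMs 4 rose and 2 fell, against 20.0% and 18.3%. Against 7.09% of all genes, 3 of 11 were called, among them Stat2, a partner in the interferon-activated STAT complex, at 2.78 ± 0.14 and Jak2, a kinase of many cytokine receptors, at 2.50 ± 0.096. Both were also called in the interaction, at 1.77 ± 0.19 and 1.67 ± 0.13, where 3 of 11 were called against 4.76% of genes. Jak2 stood at 353 ± 17.9 CPM in SjSS and 118 ± 14.5 CPM in B6 BMDMs after AC. Of 6 textbook STAT targets outside the family, all 6 (Osm among them, which is also in the ligand list) rose after AC in SjSS BMDMs, against 28.6% of genes. Irf1, Pim1, Junb and Fcgr1 were called higher there, 4 of 6 against 7.09%. The targets that rose in B6 BMDMs were Bcl3, Irf1, Junb and Pim1, 4 of 6 against 20.0% of genes. Of these, 0 were called higher, against 2.43%. Irf1, an interferon-induced transcription factor, went from 78.8 ± 10 to 1370 ± 84.0 CPM in SjSS and from 73.0 ± 3.70 to 128 ± 2.72 CPM in B6 BMDMs, an interaction of 3.31 ± 0.14. Pim1, a STAT-induced kinase, had an interaction of 2.30 ± 0.20 and Fcgr1, a high-affinity receptor for IgG, one of 1.41 ± 0.15.

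Of 27 tested cytokine receptor genes, 10 rose and 7 fell after AC in SjSS BMDMs, where 28.6% of all genes rose and 29.4% fell, and 5 rose and 12 fell in B6 BMDMs, where 20.0% rose and 18.3% fell. The rising share in B6 and the falling share in SjSS BMDMs were thus near those of all genes. Il15ra, which presents IL-15, changed most, from 2.30 ± 0.463 to 61.2 ± 4.53 CPM in SjSS and from 1.98 ± 0.0153 to 2.96 ± 0.192 CPM in B6 BMDMs, an interaction of 4.14 ± 0.29. Il6ra, the ligand-binding chain for IL-6, fell by 1.73 ± 0.062 in SjSS BMDMs, and Il2rg, the common gamma chain, and Il12rb2, an IL-12 receptor chain, rose by 1.46 ± 0.074 and 1.56 ± 0.23. Each moved the same way in B6 BMDMs after AC, without being called. Il6ra went there from 113 ± 5.22 to 46.2 ± 1.3 CPM and Il2rg from 62.3 ± 4.36 to 90.6 ± 4.67 CPM. Il12rb2 went there from 1.21 ± 0.342 to 1.96 ± 0.266 CPM, beside 1.86 ± 0.182 CPM in AC treated SjSS BMDMs. In the interaction Il15ra, Lepr, Il12rb1 (2.27 ± 0.33) and Il13ra1 (1.94 ± 0.16) were called, 4 of 27 against 4.76% of genes. Il12rb1 went from 2.9 ± 0.216 to 7.92 ± 1.05 CPM in SjSS and from 2.28 ± 0.71 to 1.28 ± 0.271 CPM in B6 BMDMs. Il13ra1 went from 10.6 ± 1.7 to 26.2 ± 2.13 CPM in SjSS and from 22.6 ± 3.15 to 14.6 ± 0.619 CPM in B6 BMDMs. Both interactions thus combine a rise in SjSS with a fall in B6 BMDMs. Lepr, the leptin receptor, was at or under 0.261 CPM in every group mean. Lepr lost its call without the first or the second B6 control and without the second or the third sample of SjSS control, B6 AC and SjSS AC groups, each left out alone.

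The partners that SOCS proteins act through mostly changed little in size. Of 8 partners of the SOCS box, 7 rose after AC in SjSS and 6 in B6 BMDMs, against 28.6% and 20.0% of all genes, with list medians of 0.28 and 0.22. Only Ube2f, a neddylation enzyme for cullin ligases, was called, at 1.40 ± 0.055 in SjSS BMDMs, 1 of 8 against 7.09% of genes. Ube2f went from 44.9 ± 2.05 to 118 ± 4.08 CPM in SjSS and from 55.5 ± 3.1 to 87.6 ± 3.33 CPM in B6 BMDMs. It was not called in the interaction with AC. After CpG it stood at 108 ± 2.8 CPM in SjSS and 114 ± 3.76 CPM in B6 BMDMs. Elongins B and C are in the table under their older names Tceb2 and Tceb1. Among 13 other brakes on JAK-STAT signalling, 7 rose and 3 fell after AC in SjSS BMDMs, against 28.6% and 29.4% of genes. The B6 counts were 6 and 1, against 20.0% and 18.3%. Usp18, which blocks the type I interferon receptor, went from 15.9 ± 1.36 to 560 ± 30.5 CPM in SjSS and from 5.47 ± 0.692 to 40.9 ± 2.88 CPM in B6 BMDMs. Its interaction was 2.24 ± 0.30, and it was the 1 brake of 13 called in the interaction, against 4.76% of genes. Ptpn2, a phosphatase of JAKs and STATs, was at the threshold of 1.3 with an SE of 0.086 in SjSS BMDMs, and came under it without the third SjSS control (1.21) or the second SjSS AC sample (1.29). Irs2, an insulin receptor substrate, fell by 1.69 ± 0.13 in SjSS BMDMs and was the 1 of 9 other substrates called, against 5.83% of genes called lower. It also fell in B6 BMDMs, from 43.2 ± 5.14 to 25.7 ± 2.41 CPM. Of the 5 TAM receptors and ligands, the receptor family that senses apoptotic cells, Axl was called in the interaction at 1.70 ± 0.16, 1 of 5 against 4.76% of genes. After AC it rose from 188 ± 4.86 to 357 ± 32.0 CPM in SjSS BMDMs, without being called, and Mertk fell. Axl, Gas6, Mertk and Pros1 fell in B6 BMDMs, 4 of 5 against 18.3% of genes. The fall of Axl there was from 261 ± 44.5 to 152 ± 16.1 CPM, so its interaction combines a rise in SjSS with a fall in B6 BMDMs.

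The genes whose profile over the 18 samples was most like that of each member were sought by Pearson's r of log2 CPM, given as a description because the points share groups and libraries. For Socs1 these were Papd7 (0.993), Serpina3g (0.990) and Dnaja2 (0.989), and for Socs3 Nfkbia (0.997), which encodes the NF-κB inhibitor IκBα, Adam17 (0.994) and Pik3r6 (0.993). Socs7 was followed by Apobec3 (0.990), Prpf38a (0.989) and March5 (0.987), whose name the table holds as a date and whose position identified it. Cish was most like Sirt1 (0.952), Cd86 (0.947) and Cd83 (0.947), and Socs2 most like Ccnd1 (0.961), Ube2h (0.955) and Bzw2 (0.948). Socs6 was most like Abhd15 (0.988), Scarb2 (0.983) and Fam110b (0.982), and Socs5 most like Fam43a (0.977), Tor4a (0.976) and Zfp217 (0.974). Socs4, which hardly varied, reached 0.890 with Ubr3 and 0.859 with Luc7l2. Within the family, Socs1 and Socs7 were most alike (0.924), Socs2 and Socs6 came next (0.841), and Socs5 ran opposite to Cish (-0.943).

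Totals were 30688336 to 57139662 estimated counts per sample. The 7 macrophage markers were present in every sample, with summed levels of 14800 to 23600 CPM. Since AC are thymocytes, the 20 of 22 T-lineage markers present in the table were summed. All 20 came to 70.2 to 85.8 CPM in control and 27.1 to 33.9 CPM in AC treated B6 BMDMs, and to 64.3 to 81.0 and 43.6 to 48.3 CPM in SjSS BMDMs. After Cd4, Cd2, Cd28 and Lck, which macrophages can also express, were set aside, the other 16 summed to 0.96 to 1.10 CPM in control and 2.36 to 3.52 CPM in AC treated B6 BMDMs, and to 0.858 to 1.76 and 2.36 to 3.20 CPM in SjSS BMDMs, an exact permutation p of 0.10 in each strain, the smallest that 3 against 3 allows. Between strains, the AC groups overlapped in the sum of 16 and not in the sum of 20. Rag1 had no count in the control and CpG groups, 4 of the 6, and the part of these markers in the responses to AC was not tested. The 4 fibroblast markers summed to 22.7 to 70.0 CPM in B6 and 77.0 to 117 CPM in SjSS samples, so they moved with strain in every condition, and their part in the strain differences was not tested. The 4 dendritic cell markers summed to 2.36 to 3.30 CPM in AC treated SjSS and to 0.653 to 1.57 CPM in all other samples, so they moved with the members called there, and their part was not tested. Summed markers of B cells (9.41 to 26.8 CPM), neutrophils (2.06 to 11.1 CPM, 3 of 6 in the table) and NK cells (at most 0.426 CPM) were low in every group.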

How the data were processed

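Total RNA of 18 BMDM cultures was sequenced by the study. Per the labels and the study's methods, the authors aligned reads to mouse mm10 with STAR in Partek and quantified genes with the Partek E/M tool, and deposited estimated counts per gene, not normalized, of which 41.1% were not whole (tolerance 1e-06). Versions and strandedness are not given in the sources used here. Before fitting, values were rounded to whole numbers. Genes were filtered with filterByExpr, libraries scaled by TMM, and 6 group means fitted in edgeR 4.0.16 (limma 3.58.1, R 4.3.3) with the quasi-likelihood test, which gave 9 comparisons: 4 responses, 3 strain differences and 2 interactions. The thresholds (adjusted p under 0.05, log2 fold change over 1.3) are those of the study's methods. The procedure was tested on simulated data. Replicates are samples that may be separate mice, so p-values measure the spread between these samples.

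CPM use TMM-scaled totals, and FPKM divide them by the union of exons in GENCODE M21, with lengths of the longest and of the principal transcript as alternatives. Log2 CPM for likeness used a prior count of 2. The members, gene lists and markers were chosen with earlier results of these data known. All 8 members are named in every comparison. From each pathway list the genes called after AC in SjSS BMDMs or in the interaction with AC are named, at most 4 by size, and for each member the 3 tested genes of highest r. A few genes that these rules select are not reported here. Promoters come from RefSeq. Alternatives were DESeq2 1.42.0, its size factors, other filters, calls by adjusted p alone, fits with 1 comparison's samples alone, a replicate block and each library left out. The numbers of samples with the same replicate number were checked for pairing by correlating deviations from group means. Depth limits counting precision for Socs2 most.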

Additional observations from a re-analysis of the deposited data

Results flagged for a closer look

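The responses of the strains differed by a test of the difference itself, the interaction term, for 6 SOCS genes with AC and 3 with CpG. With AC, 5 were higher against 19.6% of all tested genes at an adjusted p under 0.05, and 1 lower against 18.3%. With CpG, 3 were higher against 3.23% of genes and 0 lower against 2.62%. With AC the log2 difference between the responses, SjSS against B6, was 5.35 for Socs1, 3.42 for Socs3, 2.19 for Cish, 1.71 for Socs7, 1.11 for Socs2 and -0.49 for Socs5. With CpG it was 1.40 for Socs2, 1.34 for Cish and 0.29 for Socs7, at adjusted p from 0.012 to 0.043 in edgeR's quasi-likelihood test. The CpG values of Socs2 and Socs7 were fragile and lost their adjusted p without any of several single libraries. Groups of 3 samples are too small for a test of single outlying samples.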

How the results depend on the processing

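Of the 72 log2 fold changes of members, all kept their direction and stayed called or not called with DESeq2, with its size factors, with either other filter and with a replicate block, and 71 did so with only the compared groups in the fit, where Socs2 left the calls of the interaction with CpG (adjusted p = 0.11) and 1 member remained called higher in place of 2. Without the fold threshold the count lower rose from 0 to 2 after AC in B6, to 2 after AC in SjSS, to 3 between control strains, to 1 between AC treated strains, to 3 between CpG treated strains and to 1 in the interaction with AC, and the count higher rose from 0 to 1 between control strains and to 2 between CpG treated strains. With single libraries left out, the interaction with CpG had 0 to 2 members called higher, the strain difference in control 0 to 1 lower (Socs3 at -1.32 without the second SjSS control) and that with CpG 0 to 1 lower (Socs1 at -1.3 without the third SjSS CpG sample). Values near 0 changed sign, Socs4 in the interaction with AC (-0.047 to 0.12), Socs3 in the interaction with CpG (-0.065 to 0.26), Cish after CpG in SjSS (-0.21 to 0.013), Socs2 after AC in SjSS (-0.12 to 0.19) and Socs4 after CpG in B6 (-0.14 to 0.0018). The cause was not tested. By adjusted p alone, Socs7 in the interaction with CpG was lost with DESeq2's size factors (0.063) and, like Socs1 between control strains (0.080) and Socs5 (0.083) and Cish (0.087) between CpG treated strains, with only the compared groups in the fit (0.087), and DESeq2 gained Socs2 between AC treated (0.046) and between CpG treated strains (0.038), Socs5 in the interaction with CpG (0.029), Socs6 in that with AC (0.037) and Socs4 after CpG in SjSS (0.049). The summed T-lineage markers were lower after AC by -49.3 CPM in B6 and -24.1 CPM in SjSS BMDMs with all 20 and higher by 1.87 and 1.37 CPM without Cd4, Cd2, Cd28 and Lck, which made up most of the sum. Same-numbered samples of a strain deviated together weakly (r 0.0198 to 0.264 in 18 pairs, 9 over 0.1), beside -0.252 to 0.0745 in 36 other pairs. With their own number, 32 of 36 correlated best, so samples of the same number may not be independent. The sources do not state such pairs and the main fit did not use them. The replicate block left every count of members as it was. For the strain differences this block was the replicate number shared across strains, which is not a mouse. Over all genes the block moved the calls in the interaction with CpG from 97 to 114. Of 35 results of named pathway genes, 3 changed side under any alternative, those of Ptpn2, Lepr and Il12b. FPKM by the principal transcript was chosen after seeing the data.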
